A study of Mus musculus with 6 samples.

Results

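Collagens are the trimeric proteins of the extracellular matrix, built from alpha chains that wind around each other through repeats of glycine and 2 further residues. Fibrillar collagens pack into the banded fibrils that carry tension, basement membrane collagens form the sheet-like network that wraps each muscle fibre, and FACIT chains (fibril-associated collagens with interrupted triple helices) sit on the surface of fibrils. Type VI collagen forms beaded filaments between the basement membrane and the fibrils of muscle. The remaining types are short-chain network formers, anchoring fibrils, membrane-spanning collagens and the multiplexins of basement membrane zones.

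Collagen chain genes were taken as the rows of the count table whose symbol is Col, a number, a and a number, which gave 44 of 24421 genes. By textbook assembly type they comprised 11 fibrillar, 6 basement membrane, 9 FACIT, 6 beaded-filament and 12 other chains. RNA sequencing had been run on engineered muscle constructs made from C2C12, a mouse myoblast line whose cells fuse into myotubes in low-growth-factor medium. The cells had been cast in type I collagen gel between artificial tendons in a silicone device, grown in horse serum medium for differentiation, and treated for 72 h. Treated constructs received tumour necrosis factor alpha (TNF-alpha) at 100 ng/mL and the controls its vehicle, phosphate-buffered saline, with 3 constructs a group. All 6 libraries come from this cell line without other cell types added, and the gel adds collagen protein that RNA counts do not record. The labels number the constructs as biological replicates but name no separate cell batches, so each p-value reflects only how far these constructs differ among themselves, which may be technical.

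Libraries held 81713008 to 93533748 assigned counts. Levels are given in CPM, counts relative to the TMM-scaled library total, and differences as log2 fold changes of TNF-alpha over vehicle ± SE from edgeR's quasi-likelihood test. The threshold was 0.05 for the p adjusted over all tested genes by the Benjamini-Hochberg method. All 6 skeletal muscle markers examined (Myod1, Myog, Des, Ckm, Acta1 and Myh3) were above 1 CPM in every library. In these bulk samples fewer cells of a type and less RNA per cell cannot be told apart.

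Collagen genes moved in both directions, with more falling than rising. Of the 44 genes, 40 had enough counts to be tested, and of these 10 rose, 20 fell and 10 missed the threshold. The share past the test was 75% of the collagen genes, set beside 55.5% of all 15792 tested genes. The share that rose was 25% of collagen genes beside 27.6% of all genes, and the share that fell was 50% beside 27.9%. The median log2 fold change was -0.55 over the collagen genes and 0.00 over all tested genes. By at least 2-fold, 7 collagen genes rose and 15 fell, where 8.47% of all tested genes rose and 9.46% fell by that much. TNF-alpha and vehicle libraries did not overlap in 30 of the 40 genes, beside 64.5% of all tested genes. Among the 14 chains at 100 CPM or more in vehicle constructs, 2 rose (Col5a1 and Col5a3), 9 fell and 3 missed the threshold. Choosing chains by their vehicle level favours falls. It leaves out chains that were high only with TNF-alpha, such as Col18a1 (560 CPM in TNF-alpha constructs, 61.5 CPM in vehicle constructs). The share of all genes at that level was not counted, so this split is a description only.

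**Figure D1:**
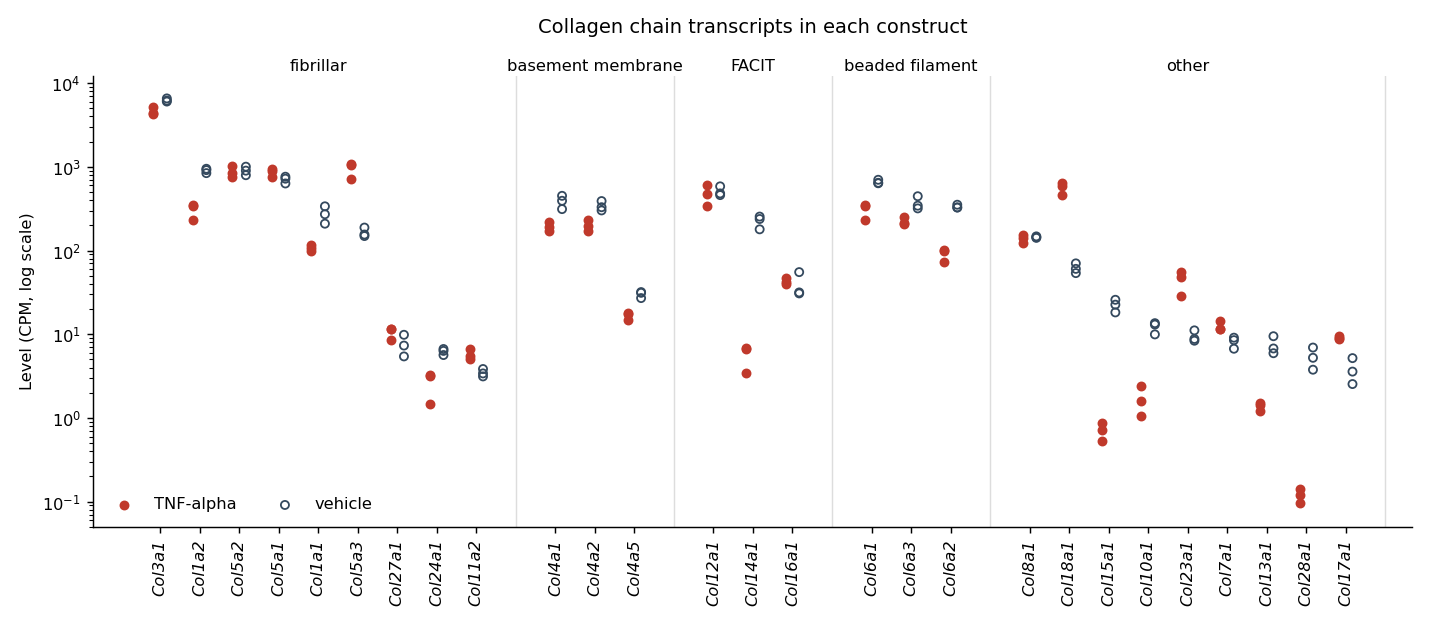
Level of each of the 27 collagen chains that averaged at least 5 CPM in a group, in CPM on a log axis, with 1 point per construct (filled red, TNF-alpha; open, vehicle) and genes grouped by class. Col3a1 lies above every other chain in both groups, Col14a1, Col15a1 and Col28a1 lie far lower in TNF-alpha constructs, and Col5a3 and Col18a1 lie far higher.

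The fibrillar class divided between its collagen types. Of its 11 chains, all tested, 4 rose, 5 fell and 2 missed the threshold, with a median log2 fold change of -0.04. The share that rose was 36.4%, beside 27.6% of all tested genes, and the share that fell 45.5%, beside 27.9%. The 2 chains of type I collagen, the main collagen of tendon and bone, fell. Col1a2 had 233, 339 and 346 CPM in TNF-alpha constructs, against 841, 948 and 913 CPM in vehicle constructs. The groups lay far apart, and TNF-alpha replicate 1 was the lowest (log2 fold change -1.56 ± 0.15, adjusted p = 8.11e-05). Col1a1 had 108, 99.0 and 116 CPM in TNF-alpha constructs, against 209, 271 and 337 CPM in vehicle constructs. The vehicle constructs differed more among themselves than the TNF-alpha constructs did, without overlap between groups (log2 fold change -1.34 ± 0.17, adjusted p = 5.11e-04).

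Col3a1, the chain of type III collagen, which forms thin fibrils in the endomysium around muscle fibres, was the most abundant collagen transcript. It had 4236, 4406 and 5176 CPM in TNF-alpha constructs, against 6022, 6563 and 6189 CPM in vehicle constructs. All TNF-alpha values lay below all vehicle values, a fall of 1.36-fold (log2 fold change -0.44 ± 0.10, adjusted p = 0.00456). Col3a1 made up 45.8% ± 1.80 of the collagen CPM in TNF-alpha constructs and 50.5% ± 0.43 in vehicle constructs (SD, n = 3 each).

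Type V collagen is incorporated into fibrils of types I and III, where it starts fibril assembly and limits fibril width, and 2 of its 3 chains rose. Col5a3, whose chain occurs in a less common type V trimer, had 719, 1056 and 1089 CPM in TNF-alpha constructs, against 155, 149 and 188 CPM in vehicle constructs. Every TNF-alpha construct was well above every vehicle construct, 5.82-fold by the fit (log2 fold change 2.54 ± 0.18, adjusted p = 2.45e-05). Col5a1, part of every common type V trimer, had 765, 893 and 952 CPM in TNF-alpha constructs and 632, 762 and 721 CPM in vehicle constructs. The nearest values of the groups almost touched (log2 fold change 0.30 ± 0.10, adjusted p = 0.033), and the call was lost without vehicle replicate 1 or 3 or TNF-alpha replicate 2 or 3, at adjusted p = 0.0597 to 0.14, with 0.00935 to 0.14 across all alternatives run. Col5a2, the partner chain of Col5a1, had 749.5, 838 and 1032 CPM in TNF-alpha constructs and 900.2, 1004 and 794 CPM in vehicle constructs. These values overlapped (log2 fold change -0.04 ± 0.13, adjusted p = 0.805). Col3a1 and Col5a2 are neighbours on GRCm38 chromosome 1, tail to tail and 24614 bases apart, with Col3a1 at 45311538 to 45349706 on the plus strand and Col5a2 at 45374321 to 45503282 on the minus strand.

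The promoter of Col5a3, the fibrillar chain with the largest rise (gene at GRCm38 chromosome 9, 20770050 to 20815067, minus strand), is shown because the gene moved against the type I and III chains. Sequences run from 250 bases before to 50 after the RefSeq start (GRCm38.p6). Capitals mark matches on either strand to CCAAT (bound by NF-Y), GGGCGG (bound by Sp1), TATAAA or the NF-kB motif. The last is GGGRNNYYCC, where R is A or G, Y is C or T and N is any base. The window at chr9:20815018-20815317, minus strand, held 1 CCAAT and 3 GGGCGG matches.
Col5a3 promoter: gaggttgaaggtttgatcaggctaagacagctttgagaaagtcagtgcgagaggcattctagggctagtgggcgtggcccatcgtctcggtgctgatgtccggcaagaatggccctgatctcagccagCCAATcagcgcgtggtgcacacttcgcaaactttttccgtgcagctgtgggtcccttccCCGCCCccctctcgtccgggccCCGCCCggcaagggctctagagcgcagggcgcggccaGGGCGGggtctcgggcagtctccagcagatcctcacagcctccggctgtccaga

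The fibrillar chains of cartilage, and Col24a1 of bone, were low in these constructs. Col11a1, the type XI chain of cartilage fibrils, had 4, 7 and 12 counts in the TNF-alpha libraries, against 183, 376 and 155 counts in the vehicle libraries. The groups were far apart (log2 fold change -4.88 ± 0.49, adjusted p = 8.27e-05). Its partner Col11a2 rose, with 5.13, 5.52 and 6.67 CPM in TNF-alpha constructs against 3.13, 3.84 and 3.40 CPM in vehicle constructs, so the 2 type XI chains went in opposite directions (log2 fold change 0.74 ± 0.15, adjusted p = 0.00263 for Col11a2). Col2a1, the main collagen of cartilage, rose at a low level, with 40 to 64 counts in TNF-alpha libraries and 15 to 26 in vehicle libraries (log2 fold change 1.37 ± 0.31, adjusted p = 0.00547). Col24a1, a minor fibrillar chain of developing bone, had 1.48, 3.28 and 3.21 CPM in TNF-alpha constructs, against 5.64, 6.66 and 6.33 CPM in vehicle constructs. It fell without overlap (log2 fold change -1.23 ± 0.28, adjusted p = 0.00672). Col27a1, a minor chain of cartilage, had 8.65, 11.5 and 11.6 CPM in TNF-alpha constructs and 7.33, 5.43 and 9.85 CPM in vehicle constructs. Its groups overlapped through vehicle replicate 3 (log2 fold change 0.49 ± 0.22, adjusted p = 0.0932). The adjusted p of Col27a1 was 0.0119 without that library and 0.0392 with DESeq2, with 0.0119 to 0.23 across all alternatives run.

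**Figure D2:**
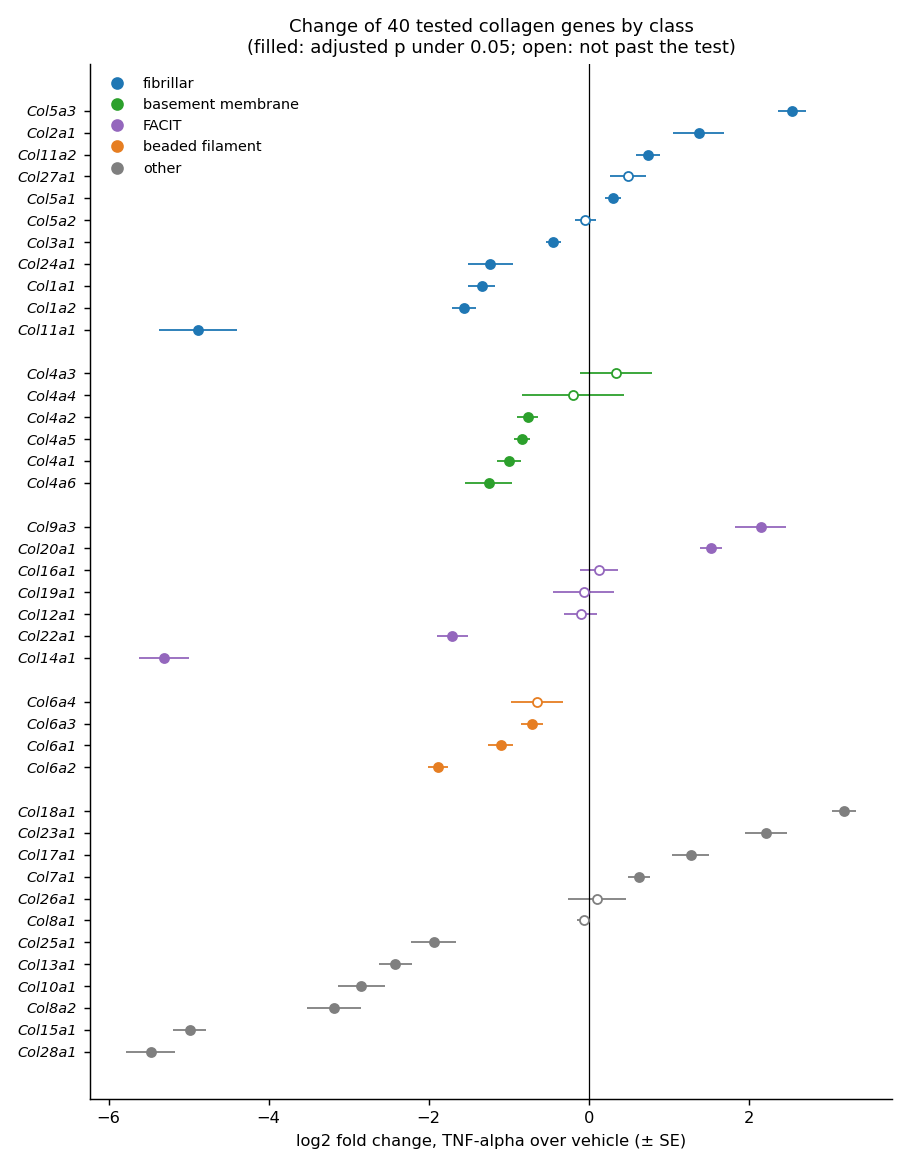
Log2 fold change of TNF-alpha over vehicle with its SE for the 40 tested collagen genes, grouped by class and ordered within each; filled points passed the test and open points did not. Fibrillar, FACIT and other chains lie on both sides of 0, and the filled points of the basement membrane and beaded-filament classes all lie below 0.

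Basement membrane chains fell or did not pass the test. Of the 6 type IV genes, 0 rose by edgeR's test, with 0 also by DESeq2 and limma-voom, while 4 fell and 2 missed the threshold (median log2 fold change -0.80). The share that fell was 66.7%, beside 27.9% of all tested genes, where 27.6% rose. Type IV collagen of most tissues, muscle included, is a trimer of the Col4a1 and Col4a2 products. Col4a1 had 169, 190.4 and 219 CPM in TNF-alpha constructs, against 393, 450.3 and 313 CPM in vehicle constructs. Vehicle replicate 3 was the lowest control and still above every TNF-alpha construct (log2 fold change -0.998 ± 0.15, adjusted p = 8.86e-04). Col4a2 had 173, 195 and 233 CPM in TNF-alpha constructs, against 329, 389.9 and 301 CPM in vehicle constructs. The order of the libraries matched that of Col4a1 within each group (log2 fold change -0.76 ± 0.13, adjusted p = 0.00144).

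Col4a5, whose chain forms trimers with those of Col4a6 or of Col4a3 and Col4a4, had 14.8, 17.5 and 18.1 CPM in TNF-alpha constructs, against 31.2, 27.0 and 31.9 CPM in vehicle constructs. It fell without overlap (log2 fold change -0.84 ± 0.10, adjusted p = 1.47e-04). Col4a6, its neighbour in head-to-head orientation on chromosome X, had 24 to 29 counts in TNF-alpha libraries, against 49 to 80 in vehicle libraries (log2 fold change -1.25 ± 0.29, adjusted p = 0.00578). Col4a3 and Col4a4, chains of the kidney and lung type IV network, had at most 34 counts in any library and overlapping groups (adjusted p = 0.546 and 0.812).

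The type IV genes lie as 3 head-to-head pairs, a layout in which both genes start from a shared stretch of DNA. Col4a1 (chromosome 8, 11198423 to 11312826, minus strand) and Col4a2 (11312805 to 11449287, plus strand) have annotated starts 21 bases apart, whereas those of Col4a6 and Col4a5 are 1343 bases apart. Both genes fell in each of these pairs. In the other pair, Col4a4 and Col4a3 on chromosome 1, whose annotated genes are 71 bases apart, neither gene passed the test, with log2 fold changes of -0.20 ± 0.64 for Col4a4 and 0.34 ± 0.45 for Col4a3. The windows of Col4a1 (chr8:11312777-11313076, minus strand) and Col4a2 (chr8:11312555-11312854, plus strand) are shown because the pair fell together. That of Col4a1 held 1 CCAAT and 1 GGGCGG match. That of Col4a2 held 1 CCAAT, 3 GGGCGG and 1 NF-kB match, the last beginning at position -40 and sharing 2 bases with the CCAAT match. The 2 windows overlap, and the GGGCGG match of Col4a1 (position 10) is the same site as that of Col4a2 at position 8.
Col4a1 promoter: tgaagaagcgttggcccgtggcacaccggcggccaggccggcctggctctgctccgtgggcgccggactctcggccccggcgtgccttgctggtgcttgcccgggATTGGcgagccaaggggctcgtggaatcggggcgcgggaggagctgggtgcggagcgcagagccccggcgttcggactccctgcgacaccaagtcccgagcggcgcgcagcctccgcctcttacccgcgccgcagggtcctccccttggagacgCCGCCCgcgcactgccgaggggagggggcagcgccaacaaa
Col4a2 promoter: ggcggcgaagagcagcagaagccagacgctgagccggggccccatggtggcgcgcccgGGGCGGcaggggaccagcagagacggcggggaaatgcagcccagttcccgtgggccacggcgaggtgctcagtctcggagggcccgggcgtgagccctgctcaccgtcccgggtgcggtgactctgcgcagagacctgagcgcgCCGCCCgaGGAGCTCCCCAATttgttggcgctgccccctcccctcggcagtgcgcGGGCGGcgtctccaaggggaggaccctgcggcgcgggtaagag

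FACIT chains held 1 transcript with a steep fall, Col14a1, beside an abundant one that missed the threshold, Col12a1. Of the 9 genes, 7 were tested, and of these 2 rose, 2 fell and 3 missed the threshold (median log2 fold change -0.06). These shares were near those of all tested genes, with 57.1% past the test beside 55.5%. The share that rose was 28.6% beside 27.6%, and the share that fell 28.6% beside 27.9%. Col14a1, whose product (undulin) sits on type I fibrils and regulates their growth, had 3.49, 6.60 and 6.90 CPM in TNF-alpha constructs, against 238, 254 and 179 CPM in vehicle constructs. The groups were separated by a wide gap, a fall of 39.6-fold (log2 fold change -5.31 ± 0.32, adjusted p = 4.8e-05). Col12a1, a related FACIT on the same fibrils, had 469, 343 and 611 CPM in TNF-alpha constructs and 459, 584 and 481 CPM in vehicle constructs. The TNF-alpha constructs held both the highest and the lowest value (log2 fold change -0.10 ± 0.21, adjusted p = 0.709). Col16a1, found near basement membranes and on fibrils, had 39.8, 41.8 and 46.7 CPM in TNF-alpha constructs and 31.6, 30.7 and 55.2 CPM in vehicle constructs. Vehicle replicate 3 was its highest library (log2 fold change 0.13 ± 0.24, adjusted p = 0.683), and without it Col16a1 passed the test at 0.45 on the log2 scale (adjusted p = 0.00314, with 0.00314 to 0.979 across all alternatives run).

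Among the lower FACIT chains, Col22a1, a collagen of the myotendinous junction, had 1.18, 1.75 and 1.21 CPM in TNF-alpha constructs, against 4.05, 4.99 and 4.46 CPM in vehicle constructs. It fell 3.27-fold (adjusted p = 1.07e-04). Col20a1 had 5.20, 4.31 and 5.00 CPM in TNF-alpha constructs, against 1.72, 1.65 and 1.65 CPM in vehicle constructs, and rose 2.89-fold (adjusted p = 3.2e-05). Col9a3, a type IX chain of cartilage, rose 4.44-fold, with 116 to 154 counts in TNF-alpha libraries and 19 to 47 in vehicle libraries (adjusted p = 5.25e-04). Its exons overlap those of the antisense gene Tcfl5, and since the use of strand in counting is not given, reads of the 2 genes cannot be told apart. Col19a1 had 13 to 29 counts in each library and missed the threshold. The other type IX chains, Col9a1 and Col9a2, had at most 8 counts in any library and were not tested.

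Beaded-filament collagen fell in all 3 of its abundant chains. Type VI collagen is a trimer of the Col6a1, Col6a2 and Col6a3 products, and loss of any of these causes muscular dystrophy in humans. Col6a1 had 231, 344 and 349.8 CPM in TNF-alpha constructs, against 644, 700.2 and 636 CPM in vehicle constructs. TNF-alpha replicate 1 was the lowest and the groups did not overlap (log2 fold change -1.10 ± 0.16, adjusted p = 6.92e-04). Col6a2 had 73.0, 102 and 98.9 CPM in TNF-alpha constructs, against 326, 353 and 328 CPM in vehicle constructs. By fitted value this was the largest fall in the class (log2 fold change -1.88 ± 0.12, adjusted p = 9.56e-06). Col6a3, the largest of the chains, had 212, 255 and 207 CPM in TNF-alpha constructs, against 343, 319 and 445 CPM in vehicle constructs. It had the smallest fitted fall of the 3 chains, again without overlap (log2 fold change -0.72 ± 0.14, adjusted p = 0.00298). No chain rose by edgeR's test, 0 of the 4 tested, and 0 rose by DESeq2 or limma-voom. The share of the 4 that fell was 75%, beside 27.9% of all tested genes, where 27.6% rose. Col6a4 had 18 to 43 counts and missed the threshold (adjusted p = 0.122), and Col6a5 and Col6a6, which can take the place of the Col6a3 chain, had at most 7 counts in any library and were not tested. Col6a1 and Col6a2 lie on the same strand of chromosome 10, 85161 bases apart.

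The remaining 12 chains included Col18a1, with the largest fitted rise of the tested collagen genes, and Col28a1, with a fall close to that of Col14a1. Among them 4 rose, 6 fell and 2 missed the threshold (median log2 fold change -1.001). The share that rose was 33.3%, beside 27.6% of all tested genes, and the share that fell 50%, beside 27.9%. The multiplexins, basement membrane zone collagens whose cleaved ends are the angiogenesis inhibitors endostatin and restin, went in opposite directions. Col18a1 had 460.5, 638 and 583 CPM in TNF-alpha constructs, against 53.7, 60.4 and 70.2 CPM in vehicle constructs. Every TNF-alpha construct was far above every vehicle construct, 9.11-fold by the fit (log2 fold change 3.19 ± 0.15, adjusted p = 2.26e-06). Col15a1, whose loss in mice causes a mild muscle disease, had 0.524, 0.863 and 0.716 CPM in TNF-alpha constructs, against 18.2, 22.6 and 25.8 CPM in vehicle constructs. Its fall was 31.7-fold (log2 fold change -4.99 ± 0.21, adjusted p = 6.71e-07). Col28a1, a chain known from peripheral nerve, had 9 to 12 counts in TNF-alpha libraries, against 314 to 638 in vehicle libraries. Its fall (log2 fold change -5.48 ± 0.31, adjusted p = 2.17e-06) and that of Col14a1 (-5.31 ± 0.32) lay within 1 SE of each other, and without vehicle replicate 3 the order turned, at -5.24 for Col28a1 and -5.45 for Col14a1.

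The starts of these genes are shown because Col18a1 and Col15a1 are close relatives that moved apart and Col28a1 had one of the largest falls. Col18a1 (chromosome 10, 77052178 to 77166548, minus strand) has 2 RefSeq starts, and the counts, given per gene, do not show which was used. Its upstream window (chr10:77166481-77166780) held 1 CCAAT and 3 GGGCGG matches, and its downstream window (chr10:77113656-77113955) held none of the 4 motifs, as did those of Col15a1 (chr4:47207762-47208061, plus strand) and Col28a1 (chr6:8192568-8192867, minus strand).
Col18a1 upstream promoter: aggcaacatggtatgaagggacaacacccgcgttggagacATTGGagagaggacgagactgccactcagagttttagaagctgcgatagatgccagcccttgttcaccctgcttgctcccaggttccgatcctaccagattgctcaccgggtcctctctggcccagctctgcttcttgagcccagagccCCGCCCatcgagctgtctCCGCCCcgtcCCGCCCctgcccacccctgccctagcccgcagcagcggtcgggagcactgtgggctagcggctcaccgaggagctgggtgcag
Col18a1 downstream promoter: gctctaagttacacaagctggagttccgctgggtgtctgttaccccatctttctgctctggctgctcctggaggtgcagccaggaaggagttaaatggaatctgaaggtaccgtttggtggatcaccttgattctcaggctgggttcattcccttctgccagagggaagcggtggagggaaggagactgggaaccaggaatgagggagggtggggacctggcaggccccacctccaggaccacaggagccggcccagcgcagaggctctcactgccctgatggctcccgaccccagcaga
Col15a1 promoter: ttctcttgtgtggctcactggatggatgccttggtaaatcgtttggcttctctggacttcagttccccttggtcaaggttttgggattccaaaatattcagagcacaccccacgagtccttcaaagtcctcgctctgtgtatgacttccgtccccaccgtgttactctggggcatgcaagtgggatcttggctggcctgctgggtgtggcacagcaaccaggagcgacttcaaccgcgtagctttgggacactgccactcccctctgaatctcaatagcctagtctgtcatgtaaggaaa
Col28a1 promoter: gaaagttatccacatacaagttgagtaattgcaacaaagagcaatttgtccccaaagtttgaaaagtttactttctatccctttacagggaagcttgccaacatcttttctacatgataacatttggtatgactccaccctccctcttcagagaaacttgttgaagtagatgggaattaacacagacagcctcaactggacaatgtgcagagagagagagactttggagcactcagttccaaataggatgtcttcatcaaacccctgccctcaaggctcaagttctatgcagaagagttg

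Over all 38 windows of the 35 collagen genes with a RefSeq start, GGGCGG occurred in 23 windows (60.5%), beside 35.7% of all 32851 windows. CCAAT occurred in 34.2% beside 37.4%, TATAAA in 13.2% beside 13.6%, and the NF-kB motif in 18.4% (7 windows) beside 8.46%. These shares were not tested, and the windows are not all separate. Col6a2 has overlapping windows, each with its own GGGCGG and NF-kB matches, and Col4a1 and Col4a2 share a GGGCGG site. The windows with an NF-kB match belonged to Col4a2 and Col6a2, which fell, to Col27a1 and Col6a4, which missed the threshold, and to the untested Col9a1 and Col9a2. Of the 10 rising genes, 8 had a RefSeq window, and none of their 9 windows held the NF-kB motif. A motif found in 8.46% of all windows is often absent from so few, so this does not set the rising genes apart. It says nothing about binding elsewhere.

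Membrane-spanning collagens divided evenly. Col23a1 had 28.7, 55.0 and 47.8 CPM in TNF-alpha constructs, against 8.37, 11.1 and 8.78 CPM in vehicle constructs. It rose without overlap (log2 fold change 2.22 ± 0.26, adjusted p = 5.16e-04). Col17a1, the hemidesmosome collagen of skin, had 9.48, 9.04 and 8.84 CPM in TNF-alpha constructs, against 3.58, 2.54 and 5.18 CPM in vehicle constructs. It rose 2.42-fold, with closely spaced TNF-alpha values (adjusted p = 0.00197). Col13a1, which helps maintain the neuromuscular junction, had 1.20, 1.42 and 1.53 CPM in TNF-alpha constructs, against 5.93, 9.47 and 6.76 CPM in vehicle constructs. It fell 5.35-fold (adjusted p = 2.08e-05). Col25a1, which mouse muscle needs for motor innervation, had 58 to 76 counts in TNF-alpha libraries, against 167 to 366 in vehicle libraries, and fell 3.83-fold (adjusted p = 4.42e-04).

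Among the short-chain network collagens, Col8a1 had 153, 122 and 140.2 CPM in TNF-alpha constructs and 144, 148 and 142 CPM in vehicle constructs. The vehicle values lay within the range of the TNF-alpha values (log2 fold change -0.06 ± 0.08, adjusted p = 0.549). Its partner chain Col8a2 fell 9.11-fold, with 17 to 31 counts in TNF-alpha libraries, against 149 to 295 in vehicle libraries (adjusted p = 7.81e-05). Col10a1, the marker collagen of hypertrophic cartilage, had 1.06, 2.44 and 1.61 CPM in TNF-alpha constructs, against 9.96, 13.6 and 13.0 CPM in vehicle constructs. It fell 7.17-fold (adjusted p = 1.59e-04), and its exons overlap those of the antisense gene Nt5dc1. Col7a1, which forms the anchoring fibrils of skin, had 11.7, 11.5 and 14.3 CPM in TNF-alpha constructs, against 6.71, 9.10 and 8.50 CPM in vehicle constructs. It rose 1.54-fold (adjusted p = 0.00485). Col26a1 had 17 to 36 counts in each library and missed the threshold.

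Summed over classes, the other chains were higher with TNF-alpha and the remaining classes lower. All collagen genes together had 8888, 9997 and 11331 CPM in TNF-alpha constructs, against 11842, 13122 and 12236 CPM in vehicle constructs, or 0.996% ± 0.11 and 1.25% ± 0.060 of all counts (SD, n = 3 each). The groups did not overlap. The fibrillar class summed to 7737 ± 956 CPM in TNF-alpha constructs and 9220.1 ± 472 CPM in vehicle constructs, and without Col3a1 to 3131 ± 494 and 2962 ± 199 CPM. Type V summed to 2698 ± 426 CPM in TNF-alpha constructs and 1769 ± 127 CPM in vehicle constructs. Type I summed to 414 ± 64.4 CPM in TNF-alpha constructs and 1173 ± 108 CPM in vehicle constructs.

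Basement membrane chains summed to 411 ± 56.8 CPM in TNF-alpha constructs and 757 ± 111 CPM in vehicle constructs, and beaded-filament chains to 624 ± 96.6 and 1365 ± 48.3 CPM. FACIT chains summed to 531 ± 137 CPM in TNF-alpha constructs and 778 ± 85.6 CPM in vehicle constructs, and the other chains to 769 ± 90.5 and 279.9 ± 18.1 CPM. Single genes carried both of these differences. Without Col14a1 the FACIT sum was 525 ± 136 CPM in TNF-alpha constructs and 554 ± 63.2 CPM in vehicle constructs, and without Col18a1 the other sum was 209 ± 6.75 and 218 ± 11.5 CPM, each with overlapping groups. As a share of collagen CPM, the fibrillar class took 76.8% ± 0.26 in TNF-alpha constructs and 74.4% ± 0.46 in vehicle constructs. The beaded-filament class took 6.20% ± 0.70 in TNF-alpha constructs and 11.02% ± 0.54 in vehicle constructs, and the basement membrane class 4.07% ± 0.071 and 6.09% ± 0.71. The other class took 7.66% ± 0.69 in TNF-alpha constructs and 2.26% ± 0.12 in vehicle constructs, of which the multiplexins, almost all Col18a1 with TNF-alpha, were 5.57% ± 0.70 and 0.675% ± 0.096. Type I took 4.10% ± 0.28 in TNF-alpha constructs and 9.46% ± 0.69 in vehicle constructs, and type V 26.7% ± 1.42 and 14.3% ± 0.34. Of the type V share, Col5a3 was 9.42% ± 1.25 in TNF-alpha constructs and 1.33% ± 0.20 in vehicle constructs. These sums carry no test.

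**Figure D3:**
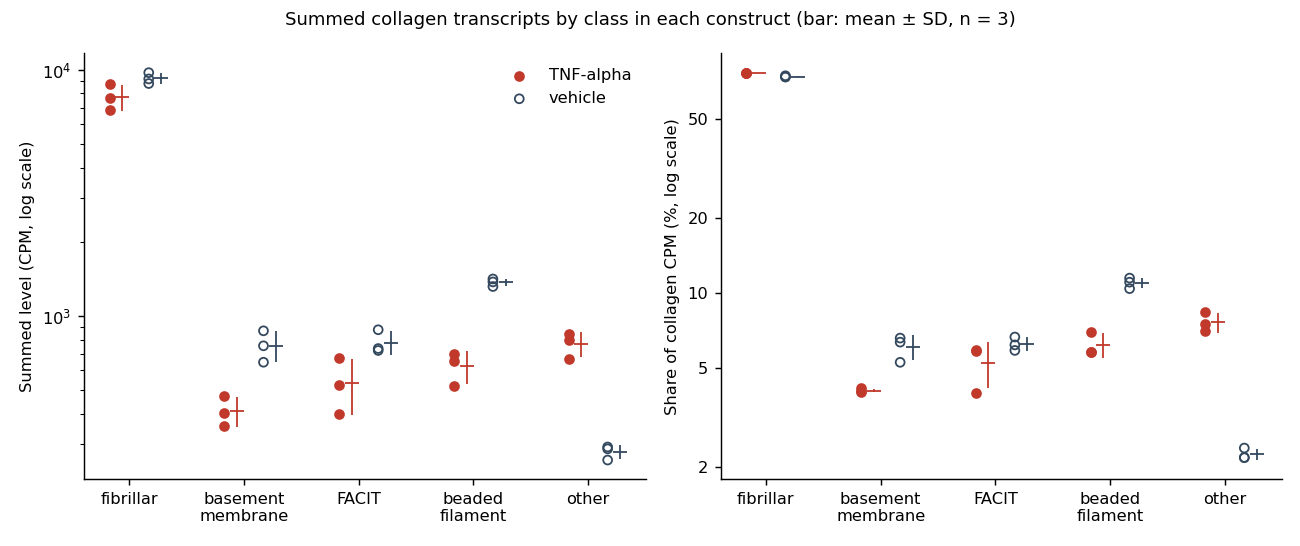
Summed level of each collagen class in CPM (left) and its share of all collagen CPM in percent (right), both on log axes, with 1 point per construct (filled red, TNF-alpha; open, vehicle) and the mean ± SD of the 3 constructs beside them. The other class lies higher in TNF-alpha constructs, the basement membrane and beaded-filament classes lie lower, and the FACIT shares overlap.

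Per kilobase of the longest annotated coding transcript, Col3a1 led in both groups, at 828 ± 90.005 CPM per kb in TNF-alpha constructs and 1125 ± 49.8 CPM per kb in vehicle constructs (SD, n = 3 each). In TNF-alpha constructs Col5a3 (156 ± 33.4 CPM per kb), Col5a2 (132 ± 21.8), Col5a1 (103 ± 11.3) and Col18a1 (100.1 ± 16.2) came next, and their SDs overlapped from each to the next. In vehicle constructs Col1a2 (168 ± 10.2 CPM per kb), Col6a1 (161 ± 8.48), Col5a2 (136 ± 15.8) and Col5a1 (83.9 ± 7.87) followed. The SDs of Col1a2 and Col6a1 overlapped there, and Col5a3 (26.8 ± 3.43) and Col18a1 (10.99 ± 1.48) stood at ranks 14 and 15.

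Ratios of chains that assemble together were compared within each construct, so that differences in depth cancel. Of 10 planned ratios, 9 had at least 10 counts of each chain in every library, the exception being Col11a1 over Col11a2. The exact two-sided permutation test of 3 against 3 constructs cannot give a p under 0.1, which is 0.15 after Benjamini-Hochberg adjustment over the 9 ratios. The ratio of Col6a1 to Col6a2 counts was 3.16, 3.39 and 3.54 in TNF-alpha constructs, against 1.98, 1.99 and 1.94 in vehicle constructs (difference 0.77 on the log2 scale, exact p = 0.1). All TNF-alpha ratios were higher than the closely spaced vehicle ratios. For Col5a3 over Col5a1 the ratio was 0.940, 1.18 and 1.14 in TNF-alpha constructs, against 0.245, 0.196 and 0.261 in vehicle constructs (exact p = 0.1). For Col4a1 over Col4a2 it was 0.977, 0.976 and 0.942 in TNF-alpha constructs and 1.19, 1.15 and 1.04 in vehicle constructs, a small shift without overlap (difference -0.22, exact p = 0.1).

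The ratio of Col3a1 to Col1a1 was 39.2, 44.5 and 44.5 in TNF-alpha constructs, against 28.8, 24.2 and 18.3 in vehicle constructs (exact p = 0.1). Col8a1 over Col8a2 was 336 to 753 in TNF-alpha constructs and 46.9 to 87.5 in vehicle constructs, and Col5a1 over Col5a2 was 0.922 to 1.07 and 0.703 to 0.908 (each exact p = 0.1). The type I ratio, Col1a1 over Col1a2, overlapped between groups, at 0.464, 0.292 and 0.336 in TNF-alpha constructs and 0.249, 0.286 and 0.370 in vehicle constructs (difference 0.26, exact p = 0.4). Col4a5 over Col4a6 and Col6a3 over Col6a1 also overlapped (exact p = 0.2 each).

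**Figure D4:**
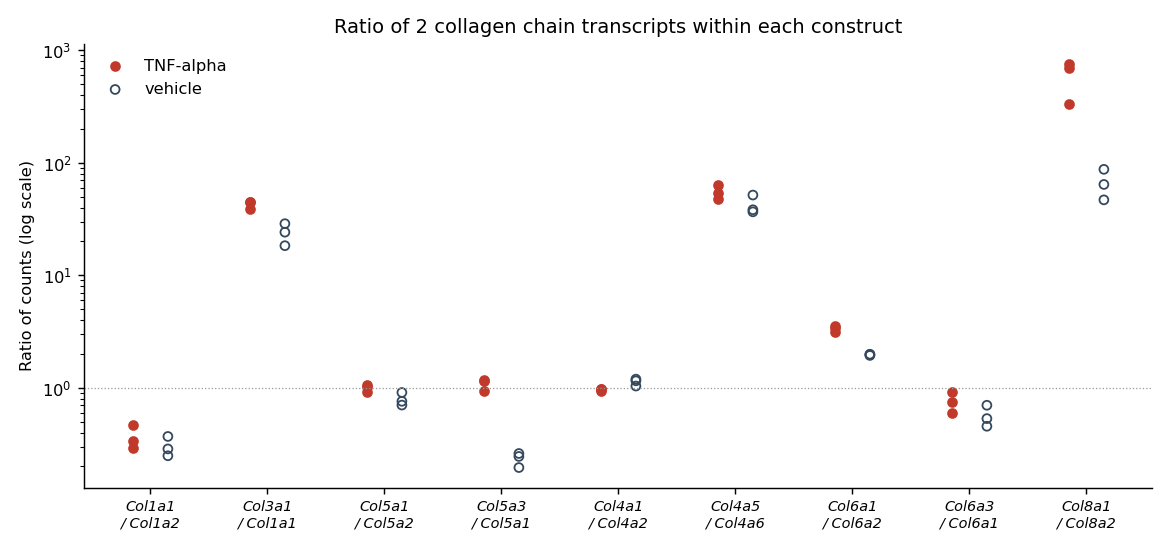
Ratio of the counts of 2 collagen chains within each construct, on a log axis, for 9 chain pairs (filled red, TNF-alpha; open, vehicle). The groups are apart for Col6a1 over Col6a2, Col5a3 over Col5a1 and Col8a1 over Col8a2, and overlap for Col1a1 over Col1a2.

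Genes that modify and fold procollagen moved in both directions. Of 19 tested, 8 rose, 8 fell and 3 missed the threshold (median log2 fold change -0.18), so 84.2% passed, beside 55.5% of all genes. Those that rose were the prolyl 4-hydroxylase subunits P4ha1 and P4ha2, the shared subunit P4hb, the lysyl hydroxylases Plod1, Plod2 and Plod3, and P3h3 and Crtap. The remaining alpha subunit gene, P4ha3, fell (log2 fold change -0.88 ± 0.17, adjusted p = 0.00235). P4hb had 1893, 1756 and 1765 CPM in TNF-alpha constructs, against 1098, 1132 and 1042 CPM in vehicle constructs (log2 fold change 0.73 ± 0.07, adjusted p = 5.67e-05). P4ha1 rose 1.82-fold to 644 ± 17.3 CPM in TNF-alpha constructs, against 354 ± 56.6 CPM in vehicle constructs (SD, n = 3 each), and Plod2 rose 2.31-fold to 366 ± 18.8 against 159 ± 12.1 CPM. The collagen chaperone Serpinh1 (HSP47) had 502, 556 and 525 CPM in TNF-alpha constructs, against 818, 811 and 754 CPM in vehicle constructs. It fell (log2 fold change -0.59 ± 0.07, adjusted p = 1.66e-04), as did the folding factors Fkbp10 and Fkbp14 and the genes P3h4 and Tmem38b. Ppib also fell, a call that was lost without vehicle replicate 1 or TNF-alpha replicate 1 or 3 (adjusted p = 0.0548 to 0.076, with 0.00969 to 0.076 across all alternatives run). The fall of Colgalt1 lost its call without vehicle replicate 2 or TNF-alpha replicate 3 (adjusted p = 0.0527 to 0.0603, with 0.00628 to 0.0603 across all alternatives run).

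Of 16 tested genes of propeptide cleavage, cross-linking and fibril assembly, 5 rose, 10 fell and 1 missed the threshold (median log2 fold change -0.78). The share that passed was 93.8%, beside 55.5% of all genes, and the share that fell 62.5%, beside 27.9%. Lox, which cross-links collagen, had 1840.5, 1746 and 2036 CPM in TNF-alpha constructs, against 509, 526 and 551 CPM in vehicle constructs, and rose 3.54-fold (adjusted p = 7.78e-07). Dcn, encoding the fibril-binding proteoglycan decorin, rose 2.97-fold to 6022 ± 200.3 CPM in TNF-alpha constructs, against 2029 ± 265 CPM in vehicle constructs. Pcolce, the enhancer of procollagen C-propeptide cleavage, had 184, 205 and 189 CPM in TNF-alpha constructs, against 546, 543 and 477 CPM in vehicle constructs. It fell 2.71-fold (adjusted p = 2e-06), and the collagen-binding glycoprotein gene Sparc fell 1.77-fold. Bmp1 and Adamts2, which remove the C and N propeptides, were also among the genes that fell. The relatives of Lox divided, with Loxl2 and Loxl4 rising and Loxl1 (log2 fold change -1.33 ± 0.12) and Loxl3 (-0.66 ± 0.09) falling. Adamts3, another N-propeptide protease, rose. Without vehicle replicate 1 or 2 or TNF-alpha replicate 1 or 3 the count that rose was 3 in place of 5, since the calls of Loxl2 (adjusted p = 0.0575 to 0.0777) and Adamts3 (0.0847 to 0.0991) were lost. Across all alternatives run the adjusted p was 8.86e-05 to 0.0777 for Loxl2, which also lost its call without a filter on low counts, and 0.0134 to 0.0991 for Adamts3.

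Among the 8 tested collagen receptors and uptake genes, 1 rose, 2 fell and 5 missed the threshold, so 37.5% passed, beside 55.5% of all genes (median log2 fold change -0.27). Itga10, an integrin subunit that binds collagen, had 3.39, 9.33 and 5.97 CPM in TNF-alpha constructs, against 62.4, 58.2 and 62.8 CPM in vehicle constructs, and fell 9.84-fold (adjusted p = 5.92e-04). Mrc2, an endocytic receptor for collagen, fell 1.44-fold (adjusted p = 0.00765). Itgb1, the shared beta subunit, had 1029 ± 37.7 CPM in TNF-alpha constructs and 1125 ± 31.8 CPM in vehicle constructs (adjusted p = 0.137), and the fibrillar collagen receptor Ddr2 had 161 ± 29.1 and 194 ± 8.33 CPM (adjusted p = 0.101). The gene that rose, Itga2, was at 0.0856 to 0.525 CPM in TNF-alpha constructs and 0.0652 to 0.117 CPM in vehicle constructs with overlap between groups (adjusted p = 0.0351). Its adjusted p was 0.113 with limma-voom and 0.0563 to 0.139 without vehicle replicate 1, 2 or 3 or TNF-alpha replicate 2 or 3, with 0.00323 to 0.139 across all alternatives run.

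Of 8 collagen-degrading proteases, 2 rose, 5 fell and 1 missed the threshold (median log2 fold change -0.97). The share that passed was 87.5%, beside 55.5% of all genes, and the share that fell 62.5%, beside 27.9%. Among those that fell, Mmp8 had 16 to 81 counts in TNF-alpha libraries and 116 to 268 in vehicle libraries. Its call was lost with no filter on low counts, with the replicate block, and without vehicle replicate 1 or 2 or TNF-alpha replicate 3. The adjusted p there was 0.0627 to 0.0989, with 7.33e-04 to 0.0989 across all alternatives run. Fap, which also fell, had 0 to 17 counts in TNF-alpha libraries and 106 to 174 in vehicle libraries. Mmp9, a gelatinase, had 208, 351 and 364 CPM in TNF-alpha constructs, against 3.54, 2.00 and 2.29 CPM in vehicle constructs (log2 fold change 6.89 ± 0.36, adjusted p = 3.12e-05). The collagenase Mmp13 also rose, to 209 ± 95.8 CPM in TNF-alpha constructs against 2.19 ± 1.25 CPM in vehicle constructs (log2 fold change 6.59 ± 0.62, adjusted p = 3.36e-04). Mmp2, the other gelatinase, had 709, 872 and 899.6 CPM in TNF-alpha constructs, against 2069, 2020.2 and 1254 CPM in vehicle constructs, with vehicle replicate 3 well below the other controls (log2 fold change -1.11 ± 0.20, adjusted p = 0.00284). Mmp14, a membrane-bound collagenase, fell 2.55-fold, to 319 ± 47.1 CPM in TNF-alpha constructs against 815 ± 167 CPM in vehicle constructs.

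**Figure D5:**
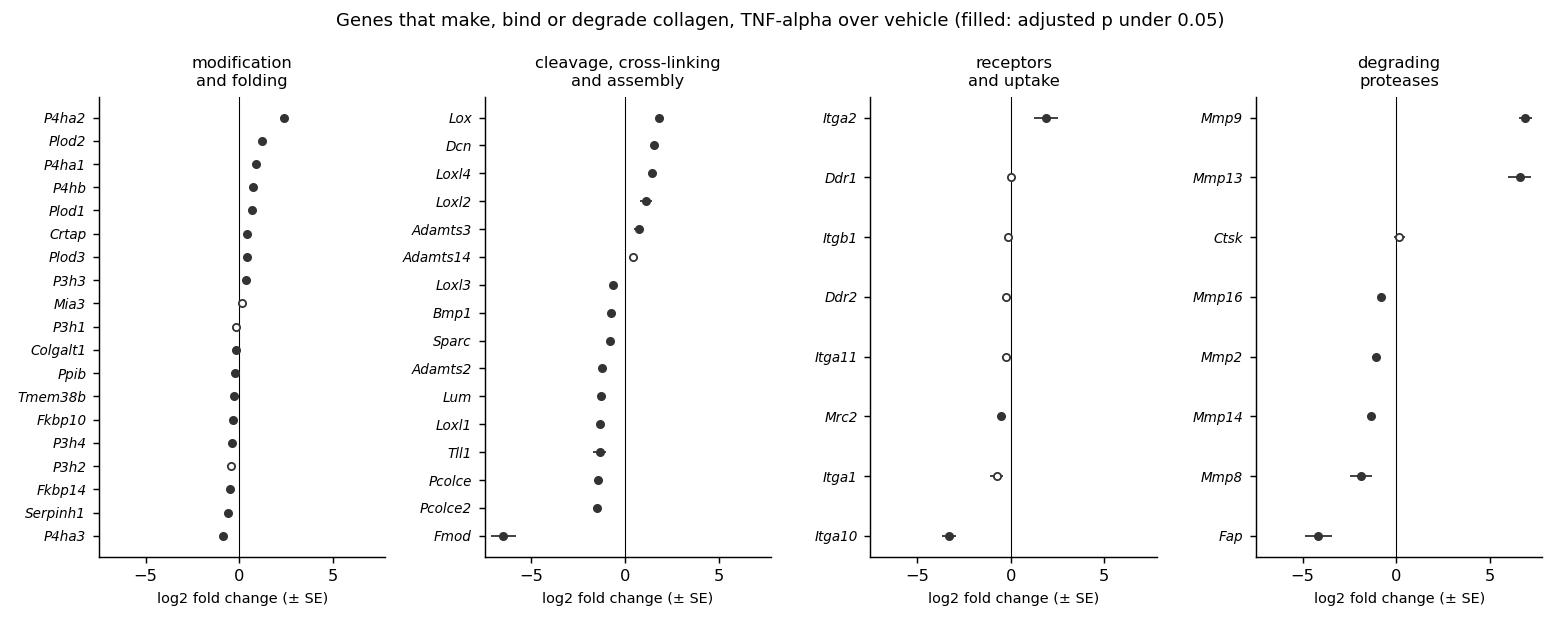
Log2 fold change of TNF-alpha over vehicle with its SE for the tested genes of 4 lists (modification and folding; cleavage, cross-linking and assembly; receptors and uptake; degrading proteases), with filled points past the test. Mmp9 and Mmp13 lie farthest to the right, and Fmod, Fap and Itga10 farthest to the left of their panels.

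Markers of cell types moved with the groups, and their part in the collagen results was not tested. The 6 skeletal muscle markers summed to 6217 to 7159.7 CPM in TNF-alpha constructs and 8309 to 9710.1 CPM in vehicle constructs, with Myog rising and Myod1, Des, Ckm and Myh3 falling. Myh3 fell 5.46-fold, to 442 ± 90.3 CPM in TNF-alpha constructs against 2415 ± 272 CPM in vehicle constructs (SD, n = 3 each), and Ckm fell 3.27-fold. Acta1, the most abundant of the 6, missed the threshold, at 3344 ± 329 CPM in TNF-alpha constructs and 3437 ± 264 CPM in vehicle constructs (adjusted p = 0.759). The call of Des was lost without any 1 of the 6 libraries (adjusted p = 0.0587 to 0.136) and with median-ratio scaling, other filters or the replicate block (0.0527 to 0.0776, with 0.0105 to 0.136 across all alternatives run). The 6 fibroblast markers summed to 342 to 479 CPM in TNF-alpha constructs and 310.4 to 329 CPM in vehicle constructs, with Pdgfra and Cd34 rising and Dpt, Pi16 and Lum falling. Cd34 carried the higher sum, at 274 ± 56.1 CPM in TNF-alpha constructs against 93.6 ± 14.3 CPM in vehicle constructs (SD, n = 3 each). In the same order, mean CPM was 59.5 against 144 for Lum, 0.540 against 25.7 for Dpt and 0.438 against 17.9 for Pi16. The call of Pdgfra was lost without vehicle replicate 1, 2 or 3, without TNF-alpha replicate 3 or with no filter on low counts (adjusted p = 0.0532 to 0.074, with 2.81e-04 to 0.074 across all alternatives run). Sox9, a chondrocyte factor, rose and made up most of that list's 87.9 to 115 CPM in TNF-alpha constructs and 40.9 to 54.5 CPM in vehicle constructs, while Acan, Matn1 and Hapln1 averaged under 0.1 CPM in either group. Matn3, on the same list, fell, with 0 to 7 counts in TNF-alpha libraries and 15 to 40 in vehicle libraries (adjusted p = 0.00928). The 5 osteoblast markers summed to 47.4 to 59.9 CPM in TNF-alpha constructs and 57.7 to 58.3 CPM in vehicle constructs, nearly all of it Runx2, while Dmp1 fell, with 0 to 11 counts in TNF-alpha libraries and 239 to 304 in vehicle libraries (adjusted p = 1.43e-04). The 5 endothelial markers summed to 1.32 to 1.59 CPM in TNF-alpha constructs and 2.49 to 3.68 CPM in vehicle constructs, with Tek falling. Tek carried the lower sum, at a mean of 0.612 CPM in TNF-alpha constructs against 2.45 CPM in vehicle constructs. Pecam1 (0.393 against 0.234 CPM, adjusted p = 0.0665) and Cdh5 (0.390 against 0.342 CPM, adjusted p = 0.803) were higher but missed the threshold. Kdr and Emcn were too low to be tested. Of the 5 macrophage markers, which summed to 69.0 to 84.6 CPM in TNF-alpha constructs and 9.11 to 9.88 CPM in vehicle constructs, nearly all the signal was Cd14, which rose. Csf1r, a receptor of macrophages, also rose, with 110 to 144 counts in TNF-alpha libraries and 20 to 24 in vehicle libraries (adjusted p = 5.33e-05), and the leukocyte gene Ptprc was at 0 in TNF-alpha constructs and 0.0339 CPM in vehicle constructs.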

How the data were processed

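Polyadenylated RNA from 6 constructs was sequenced in paired-end mode from stranded libraries, per the labels' protocols. Values are estimated counts, 1 row a gene, as deposited. The series text calls them whole, but 20.1% to 21.0% of the values of a library have decimals. The tools named in the submitters' processing notes, without their roles, were DESeq2, Subread 2.0.0 with featureCounts, Bowtie2 2.3.5.1 and TopHat2 2.1.1, on mm10 (GRCm38). Strand use in counting is not given in the sources used here, so reads of overlapping antisense genes cannot be told apart.

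Counts were rounded, in place of the whole counts first assumed, filtered with filterByExpr and scaled with TMM, and all 15792 tested genes were fitted with glmQLFit (robust) and glmQLFTest of edgeR 4.0.16 (R 4.3.3), with group as the only term. CPM used TMM-scaled totals. SEs were derived from the F statistic. Replicate pairs differed by more than sampling noise (chi-square per degree of freedom 23.0 to 70.6), and none was counted as a duplicate. Alternatives were median-ratio, upper-quartile and no scaling, other filters, DESeq2 1.42.0, limma-voom (limma 3.58.1), leaving out each library and a replicate block. The edgeR procedure was tested on simulated counts with known changes in 200 genes. Far more genes passed the test in the real data, so the simulation does not show the error rate or the scaling here. Positions and transcript lengths come from GENCODE M21 (GRCm38), and promoters from RefSeq on GRCm38.p6, which held 35 of the 44 genes (not Col1a1, Col2a1, Col4a3, Col5a2, Col9a3, Col12a1, Col14a1, Col22a1 or Col26a1). The planned description of protein sequences was not made here.

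The collagen genes, their classes and the other lists were chosen with earlier results of these data known. Values in every library were to be given for chains with at least 5 CPM in a group, and other members by range. In each other list the 3 most abundant genes and the gene with the smallest p in each direction were to be named with values. Other genes are named after their values were seen. Intervals and floors of single libraries are not given.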

Additional observations from a re-analysis of the deposited data

How the results depend on the processing

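The counts of collagen genes that rose (9 to 11) and fell (19 or 20) held within 1.5 times under each of the 14 alternatives, as did the counts by class and over all genes. Chain ratios were compared only without 1 library and with the replicate block, which cannot change their mean difference, and each difference kept its sign. That of Col1a1 over Col1a2 ranged from 0.073 to 0.42 on the log2 scale without 1 library. Summed class levels were compared only without 1 library, with total counts and per kb of transcript, and kept their direction. Of the 30 collagen calls, 29 kept their direction and side of the threshold in every alternative in which the gene was tested, the exception being Col5a1. Of the 10 chains that missed the threshold, 7 changed sign when a library was left out, and the cause was not tested. Without 1 library, the log2 fold change ranged from -0.18 to 0.058 for Col5a2, -0.62 to 0.28 for Col4a4, -0.33 to 0.084 for Col12a1, -0.024 to 0.45 for Col16a1, -0.29 to 0.17 for Col19a1, -0.14 to 0.018 for Col8a1 and -0.16 to 0.33 for Col26a1. For the pathway lists and the pathway and marker genes, to which the alternatives were applied after seeing the data, the risen genes of cleavage and assembly numbered 3 to 6 without 1 library. Over all alternatives the fallen collagen-degrading proteases numbered 4 to 5 and the fallen modification and folding genes 7 to 10. The risen collagen receptors numbered 0 to 1 without 1 library, 0 with limma-voom and 0 with at least 1 CPM in 3 libraries, where the low gene Itga2 is not tested. Same-numbered constructs did not deviate together (correlations of -0.07 to 0.07). With the replicate block, 4242 genes rose and 4244 fell over all genes and the collagen counts stayed at 10 and 20. In that pairing no ratio can give a p under 0.25. Depth limits the chains with few counts: the SEs of Col4a3, Col4a4 and Col19a1 were 0.38 to 0.64 on the log2 scale.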
